A study of Mus musculus with 18 samples.

Results

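Dermal papilla (DP) cells are recognised by a characteristic combination of genes, and 10 of these identity genes were followed here across all 18 libraries of the series: Sox2, Alpl, Vcan, Corin, Prom1, Trps1, Inhba, Tbx18, Alx4 and Ncam1. They were taken by name from the 52958 gene symbols of the DP data and the 27933 of the hair follicle stem cell (HFSC) data, and each was found in both. The DP libraries came from flow-sorted cells of female mice in 4 groups. Sham and ADX mice were wild-type C57BL/6 animals that had a sham operation or an adrenalectomy, which removes the main source of corticosterone. Control and GR KO mice were on a 129/C57BL/6 background and both received tamoxifen into the peritoneum for 6 days. Control mice were labelled wild type and GR KO mice Pdgfra-CreER; GR fl/fl, a design that deletes the glucocorticoid receptor (GR, encoded by Nr3c1) in cells that use the Pdgfra promoter, which include dermal fibroblasts in general as well as the papilla. The same groups were sorted for HFSC, together with adrenalectomised C57BL/6 mice that were fed corticosterone (ADX+CORT). Each of the 9 groups had 2 libraries. Nothing in the labels says that these came from separate animals, so p-values measure the spread between these samples only, which may be technical. By its title the series concerns how the hormone acts on Gas6 and on the resting state of the stem cells.

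The dermal papilla is a cluster of mesenchymal cells at the base of the follicle that instructs the overlying epithelium to grow hair. Its cells keep a characteristic surface and matrix, with alkaline phosphatase, versican, corin, prominin and neural cell adhesion molecule, and a set of developmental transcription factors, among them Sox2, Tbx18, Alx4 and Trps1. The papilla loses part of this programme in culture, which is why such genes are used to tell whether cells have retained papilla character. Glucocorticoids act through GR, a transcription factor that moves to the nucleus on binding hormone.

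On GRCm38, with the GENCODE M21 annotation, all 10 are protein-coding genes, and each value below counts reads on the exons, untranslated regions included. Chromosome 13 holds Vcan at chr13:89655312-89742509 on the minus strand and Inhba at chr13:16011851-16031621 on the plus strand. Corin lies at chr5:72300025-72504473 and Prom1 at chr5:43993620-44102032, both on the minus strand. Tbx18 lies at chr9:87702800-87731260 and Ncam1 at chr9:49502136-49798925, also on the minus strand. Alpl lies at chr4:137741733-137796384 and Trps1 at chr15:50654752-50890463, both on the minus strand, while Sox2 at chr3:34650405-34652461 and Alx4 at chr2:93642384-93681339 are on the plus strand. Exonic bases are shared with another gene by 5 of the 10, Corin with Gm20647, Prom1 with Gm16401, Trps1 with Mir1907, Tbx18 with D030062O11Rik and Ncam1 with Gm11149. None of these partners exceeded 2.79 CPM in a DP library, and reads of either strand could not be told apart.

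All 10 genes were detected in all 8 DP libraries, and all 10 passed the filter on low counts there. Expressed as CPM, which are counts scaled to a common library size (here by TMM), they summed to 778 to 1495 CPM per DP library and 33.05 to 76.0 CPM per HFSC library. The label of the sorted cells was further checked against 26 other DP signature genes, which summed to 4588 to 9659 CPM in DP with no gene at 0 in any library, and to 1215 to 3063 CPM in HFSC. Total estimated counts were 6199197 to 13950688 per DP library and total counts were 14067139 to 33014976 per HFSC library. The deletion was visible in DP, where Nr3c1 stood at 671 and 978 CPM in Control and at 137 and 111 CPM in GR KO, a log2 fold change of -2.73 with an edgeR adjusted p of 0.0212, which became 0.0589 without Control replicate 2.

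Compared per transcript length, as TPM (counts per base of transcript, scaled to a common sum in every library), the highest means belonged to a secreted signal and a transcription factor, followed by a matrix and an adhesion gene. Inhba, which encodes the beta A subunit of activin A, had the highest mean over the group means at 147 TPM, with libraries from 48.3 to 333 TPM. Trps1, a GATA-type zinc finger repressor, followed at 90.7 TPM, Vcan, the chondroitin sulfate proteoglycan versican, at 68.5 TPM and Ncam1, the neural cell adhesion molecule, at 54.9 TPM. The homeobox factor Alx4 had 28.9 TPM. Alpl, the tissue-nonspecific alkaline phosphatase by which papillae are classically stained, had 19.5 TPM, and the T-box factor Tbx18 had 13.6 TPM. Corin, a membrane serine protease of the papilla, had 11.1 TPM and Prom1, the membrane glycoprotein CD133, had 10.3 TPM. Sox2, an HMG-box factor that marks the papillae of a subset of hair types, was lowest at 4.85 TPM, above only 47.0% of the genes tested. The ranges over all DP libraries of every pair of neighbours in this order overlapped, which does not show that neighbours were alike. Within each single library Prom1 stood above Sox2, as with 6.06 and 5.48 TPM in Sham replicate 1. The lowest Alx4 library, 22.8 TPM, stood above the highest Sox2 library, 7.79 TPM. With gene counts divided by the length of the longest transcript, Trps1 came before Inhba, and 4 of the 10 genes kept their place.

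**Figure D1:**
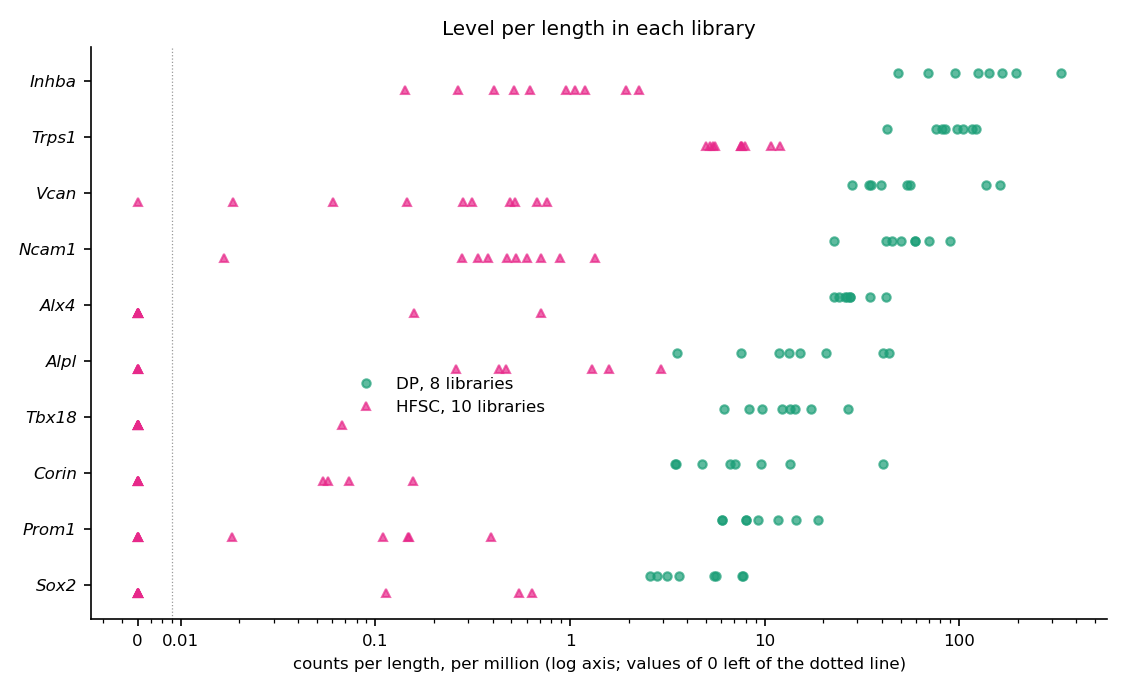
Level of each gene in every library, in TPM on a log axis, with values of 0 set apart at the left. Circles are the 8 DP libraries and triangles the 10 HFSC libraries, which were counted by a different method. In every row the lowest DP library stands above the highest HFSC library, and Trps1 is the only gene with every HFSC library above 3 TPM.

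The level of a gene between 2 libraries of 1 group varied considerably, which bears on every comparison below. The 2 GR KO libraries differed by 2.64 on the log2 scale for Corin and by 0.0072 for Alx4. In the other groups the widest gaps were 1.23 for Alpl in Sham, 1.59 for Alpl in Control and 1.32 for Sox2 in ADX. The median gap of the 10 genes was 0.48 in Sham, 0.71 in ADX, 0.66 in Control and 0.47 in GR KO, beside 0.79, 0.59, 0.38 and 0.45 over all genes tested. In bulk libraries such as these, fewer cells of a type and less RNA per cell cannot be told apart.

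GR binds DNA, and the manipulations remove either the main source of its hormone or the receptor itself. The promoter windows of the 10 genes were therefore searched for the recognition letters of GR. RefSeq windows on GRCm38.p6, each from 250 bases before to 50 bases after a transcript start, were found for 7 of the 10 genes, in 9 windows. Trps1, Alx4 and Ncam1 had no entry. The letters AGAACA, then any 3 bases, then TGTTC, searched on both strands, were in 0 of the 9 windows and in 0.0487% of all 32851. The 6 letters AGAACA alone, or TGTTCT on the other strand, which form part of the longer pattern, were in 2 of the 9 windows and in 19% of all windows. Both matches lay before a second, internal start of the gene, in sequence that overlapped no exon of the GENCODE M21 annotation and is thus intronic. The 30 bases around each are shown with those 6 letters in capitals, at chr4:137766628-137766657 on the minus strand, 170 bases before the internal start of Alpl, and at chr5:44094772-44094801 on the minus strand, 21 bases before that of Prom1.
Alpl internal start: gtgctcagcaaaTGTTCTggagggaggagt
Prom1 internal start: ctgagtaatcagTGTTCTttctctccctcc
A match of 6 letters describes the sequence and is not a binding site. Vcan, the gene with the lowest p-value of the 10 after GR deletion, held neither pattern in its window. The 250 bases before its start, chr13:89742513-89742762 on the minus strand and outside the annotated gene, are given for reference, with a C and G content of 62.4% and no part in capitals.
Vcan upstream: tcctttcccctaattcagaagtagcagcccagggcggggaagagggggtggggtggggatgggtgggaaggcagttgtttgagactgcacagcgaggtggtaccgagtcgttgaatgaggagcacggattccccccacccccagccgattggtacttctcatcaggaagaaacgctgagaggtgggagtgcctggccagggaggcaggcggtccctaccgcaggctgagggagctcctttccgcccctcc

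The first comparison asked how the identity genes of DP stood after loss of adrenal hormone. Vcan, Corin, Alpl and Prom1 had higher values in both ADX libraries than in both Sham libraries, Ncam1 had lower values in both, and the other 5 genes overlapped between the groups. None of the 10 passed the edgeR quasi-likelihood test at an adjusted p of 0.05, in a comparison in which 0.0170% of all 23463 genes passed, nor did any with DESeq2, which called 2.15%. At an unadjusted p under 0.05 stood 4 of the 10 with higher values, where 4.18% of all genes did, and 1 with lower values, where 7.49% did. Libraries did not overlap for 4 genes with higher values, where this held for 23.9% of all genes, and for 1 with lower values, where it held for 19.4%. The median log2 fold change of the 10 was 0.49, beside 0.08 over all genes. The genes were chosen with earlier results of these data known, and these counts are descriptions.

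Among the surface and matrix genes, Corin had 10.3 and 9.66 CPM in Sham and 28.6 and 41.8 CPM in ADX. Both ADX libraries stood well above a tight Sham pair, with a log2 fold change of 1.82 (95% confidence interval 0.33 to 3.32) and an edgeR adjusted p of 0.342. Prom1 had 4.18 and 5.72 CPM in Sham and 12.4 and 12.9 CPM in ADX, again without overlap, with a log2 fold change of 1.35 (0.10 to 2.60) and an edgeR adjusted p of 0.390. Alpl had 24.5 and 10.3 CPM in Sham and 33.4 and 67.8 CPM in ADX. Its ADX libraries were the higher ones, but the libraries within each group differed by over 2 times, and the log2 fold change was 1.54 (0.0023 to 3.08) with an adjusted p of 0.427. Vcan had 120 and 80.8 CPM in Sham and 209 and 162 CPM in ADX. Both ADX libraries lay above both Sham libraries, and the log2 fold change of 0.89 (0.15 to 1.62) had an edgeR adjusted p of 0.343. Ncam1 had 152 and 138 CPM in Sham and 102 and 82.6 CPM in ADX, with a log2 fold change of -0.65 (-1.25 to -0.06) and an adjusted p of 0.384. Ncam1 was therefore the 1 surface gene that stood lower in both ADX libraries. With no filter on low counts, which raised the share of all genes called to 2.08%, Corin was called at an adjusted p of 0.0037 and Alpl at 0.032, whereas DESeq2 gave 0.0996 and 0.216.

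The transcription factors and the activin subunit did not separate ADX from Sham. Sox2 had 7.23 and 9.42 CPM in Sham and 4.17 and 10.7 CPM in ADX, from only 30 to 117 estimated counts per DP library. Its ADX libraries lay on either side of the Sham libraries. Trps1 had 483 and 382 CPM in Sham and 278 and 476 CPM in ADX. Alx4 had 119 and 71.1 CPM in Sham and 93.0 and 149 CPM in ADX. For both genes the groups overlapped, with log2 fold changes of -0.20 (-1.07 to 0.68) and 0.35 (-0.37 to 1.08). Tbx18 had 40.7 and 58.4 CPM in Sham and 43.1 and 25.8 CPM in ADX, and the lowest of these 4 libraries was ADX replicate 2. Inhba had 272 and 167 CPM in Sham and 211 and 465 CPM in ADX. ADX replicate 2 thus had the highest Inhba value of all DP libraries, and without it the log2 fold change moved from 0.62 to -0.01. The intervals of these 5 genes were wide, with -1.75 to 1.42 on the log2 scale for Sox2 and -0.31 to 1.56 for Inhba, and do not show that the genes were alike in both groups.

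**Figure D2:**
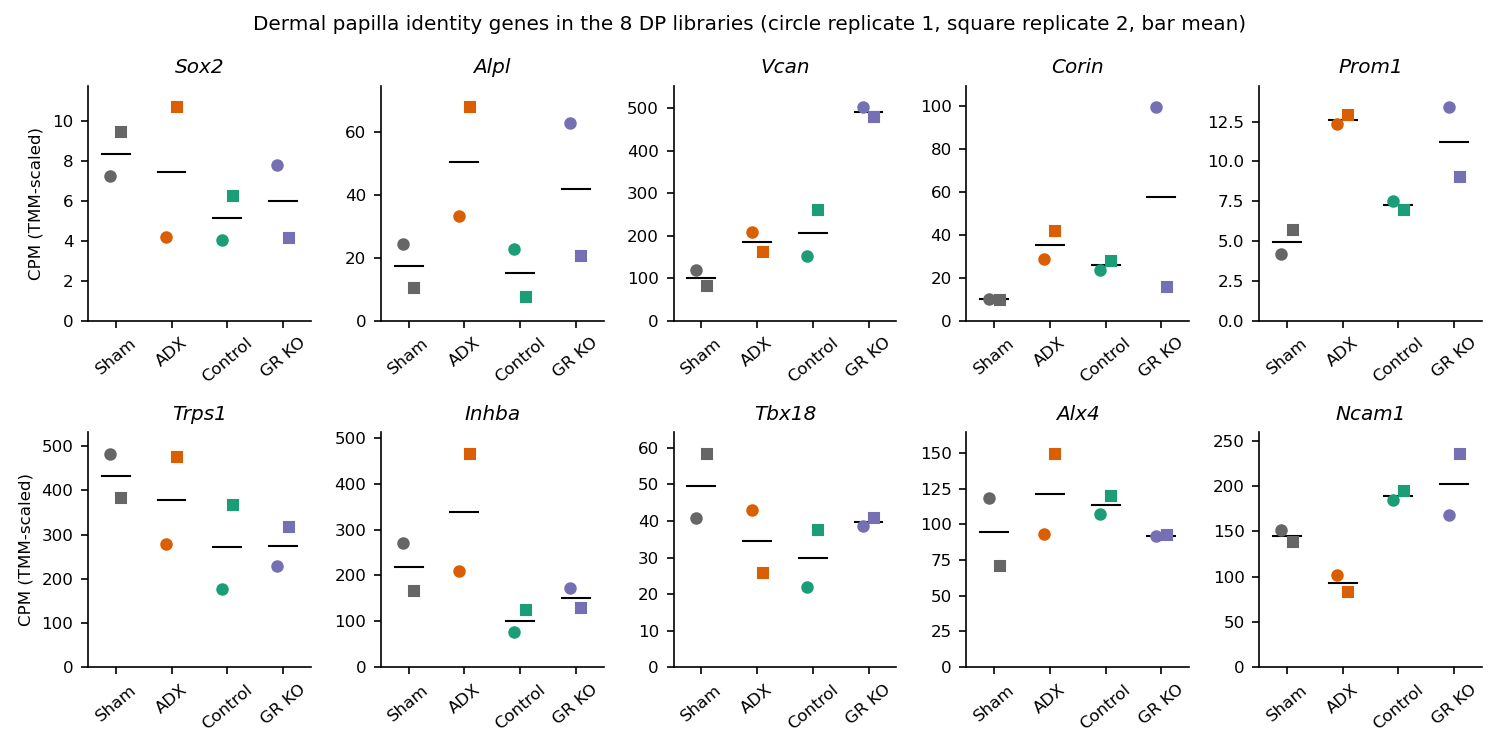
CPM of each gene in the 8 DP libraries, by group, with a linear axis from 0 for each gene, circles for replicate 1, squares for replicate 2 and a bar at the mean. Vcan reads 502 and 480 CPM in GR KO, above every other library, and the 2 GR KO libraries of Corin lie far apart at 99.6 and 15.9 CPM.

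The second comparison asked how the same genes stood in DP after deletion of GR in Pdgfra-expressing cells. Vcan was highest in both GR KO libraries, and Alpl and Corin had higher means with libraries far apart. The 4 transcription factors had log2 fold changes between -0.30 and 0.41. None of the 10 passed the edgeR test, where 1.54% of all genes did, with 180 called higher and 181 lower. With median-of-ratios scaling 134 were called higher and 247 lower, and that scaling lowered the median log2 fold change of all genes from 0.17 to 0.07. At an unadjusted p under 0.05 stood 1 of the 10, with a higher value, where 9.67% of all genes did, and 0 with lower values, where 5.57% did. Libraries did not overlap for 4 genes with higher values, Vcan, Prom1, Inhba and Tbx18, where this held for 31.6% of all genes, and for Alx4 with lower values, where it held for 20.0%. The median log2 fold change of the 10 was 0.50 beside the 0.17 of all genes.

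Vcan had 152 and 260 CPM in Control and 502 and 480 CPM in GR KO. The GR KO pair was tight and about 2.38 times the Control mean of 206 ± 76.1 CPM (SD, n = 2). The log2 fold change was 1.25 ± 0.33 (SE), with a 95% confidence interval of 0.52 to 1.99 and an edgeR adjusted p of 0.0967. DESeq2 called it at an adjusted p of 0.0186, with 6.62% of all genes called, and edgeR without a filter on low counts at 0.0176, with 3.38% called. Over all alternatives its adjusted p ranged from 0.0176 to 0.622, the latter without Control replicate 1, the lower of both Control libraries. Its log2 fold change was 1.23 without GR KO replicate 1 and 0.76 without Control replicate 1.

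Corin had 23.7 and 27.8 CPM in Control and 99.6 and 15.9 CPM in GR KO. One GR KO library was thus the highest of all DP libraries and the other was below both Control libraries. The log2 fold change of 1.16 (-0.29 to 2.62), with an edgeR adjusted p of 0.445, became -0.69 without GR KO replicate 1 and 1.96 without GR KO replicate 2. Alpl had 22.8 and 7.44 CPM in Control and 62.8 and 20.7 CPM in GR KO. Its groups overlapped, and the log2 fold change of 1.46 (-0.07 to 3.0) was 0.44 without GR KO replicate 1. Prom1 had 7.49 and 6.97 CPM in Control and 13.4 and 9.04 CPM in GR KO, without overlap, with a log2 fold change of 0.63 (-0.59 to 1.86) and an edgeR adjusted p of 0.656. Ncam1 had 185 and 194 CPM in Control and 168 and 236 CPM in GR KO. The GR KO libraries of Ncam1 lay on either side of the Control libraries, and the log2 fold change was 0.09 (-0.50 to 0.68), which turned to -0.01 with median-of-ratios scaling.

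Of the regulators, Inhba had 76.8 and 125 CPM in Control and 174 and 129 CPM in GR KO, with a log2 fold change of 0.58 (-0.36 to 1.52). The groups only just failed to overlap. Tbx18 had 22.0 and 37.6 CPM in Control and 38.6 and 40.7 CPM in GR KO, and Alx4 had 107 and 120 CPM in Control and 91.8 and 92.3 CPM in GR KO. Both had a tight GR KO pair close to the nearer Control library, with log2 fold changes of 0.41 (-0.44 to 1.27) and -0.30 (-1.03 to 0.42). Trps1 had 176 and 367 CPM in Control and 230 and 317 CPM in GR KO, so that its GR KO libraries lay between the Control libraries. Its log2 fold change was 0.01 (-0.87 to 0.89) and turned to -0.09 with median-of-ratios scaling. Sox2 had 4.02 and 6.23 CPM in Control and 7.79 and 4.12 CPM in GR KO, overlapping, with a log2 fold change of 0.22 (-1.37 to 1.81).

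**Figure D3:**
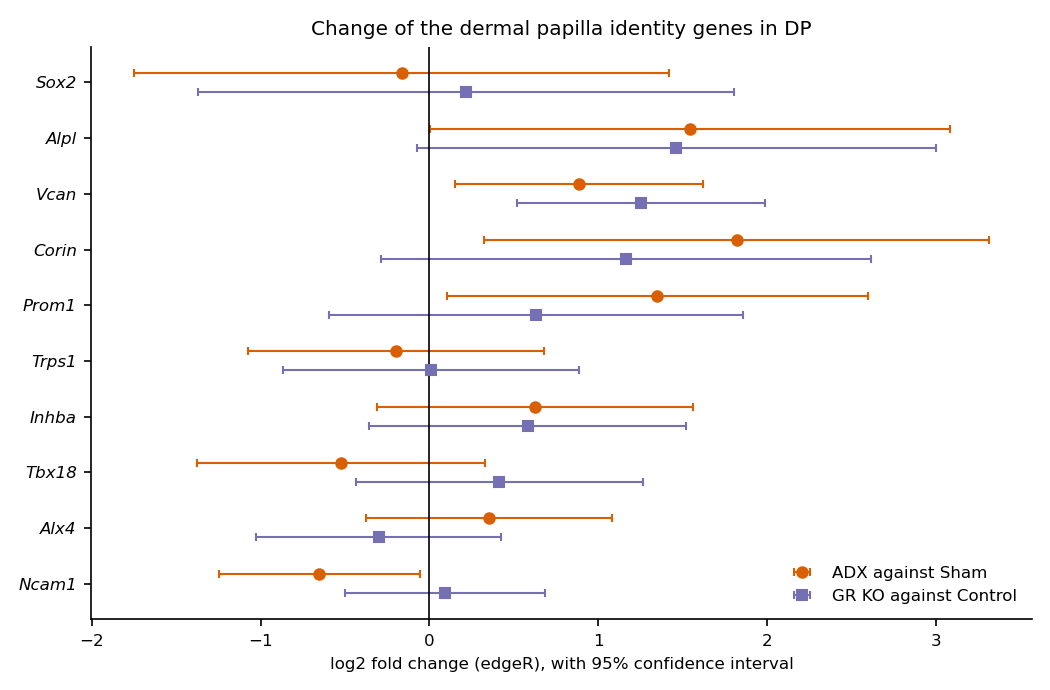
Log2 fold change of each gene in DP with its 95% confidence interval from the edgeR fit, with ADX against Sham as circles and GR KO against Control as squares. The interval lies above 0 for Corin, Prom1, Vcan and Alpl and below 0 for Ncam1 after adrenalectomy, and above 0 for Vcan alone after GR deletion, before adjustment over all genes.

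Whether the 2 manipulations differed in their effect was tested as the difference of both log2 fold changes in the same fit. None of the 10 genes passed, where 0.477% of all genes did in edgeR, 5.26% in DESeq2 and 3.03% in edgeR without a filter on low counts. An unadjusted p under 0.05 was found for 0 of the 10 in either direction, where it was for 10.6% of all genes with a higher and 4.69% with a lower effect of the deletion. The lowest p was that of Ncam1, with a difference of 0.74 (-0.09 to 1.58) and an edgeR adjusted p of 0.392. Tbx18 had -0.53 after adrenalectomy and 0.41 after GR deletion, a difference of 0.94 (-0.27 to 2.15). Vcan had 0.89 and 1.25, a difference of 0.37 (-0.66 to 1.39), and Corin had 1.82 and 1.16, a difference of -0.66 (-2.70 to 1.39). These intervals are wide and do not show that the manipulations act alike. The experiments also differed in strain and tamoxifen, which cannot be told apart from the manipulation in this difference.

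Levels of markers of other cells varied between DP libraries and are given beside these results. The 6 immune markers summed to 2551 CPM in GR KO replicate 1 and to 37.1 CPM in GR KO replicate 2, with 299 and 156 CPM in Control, and at most 1 of these genes was at 0 in a library. Corin and Alpl had their higher GR KO values in that same replicate 1. In that library the 5 skeletal muscle markers also summed to 366 CPM, beside 28.7 CPM in the other GR KO library and 13.3 to 35.2 CPM in Control. None of these immune and muscle genes was called by edgeR in GR KO, where 1.54% of all genes were. Of those tested, 1 of 4 immune and 4 of 5 muscle genes had an unadjusted p under 0.05, all with higher values. That held for 9.67% of all genes. DESeq2 called 1 immune and 2 muscle genes higher there, with 6.62% of all genes called. EdgeR without a filter called 4 and 3, with 3.38% of all genes called. The 8 smooth muscle, pericyte and dermal sheath markers summed to 313 and 441 CPM in Sham and to 6898 and 1152 CPM in ADX, with 11399 and 2770 CPM in Control and 8646 and 3921 CPM in GR KO. All 8 had an unadjusted p under 0.05 with higher values in ADX, where 4.18% of all genes did. EdgeR called 0 of the 8, DESeq2 called 4 and edgeR without a filter on low counts called all 8. Over all genes these called 0.0170%, 2.15% and 2.08%. Cnn1, a contractile protein gene, had 1.66 and 6.60 CPM in Sham and 162 and 44.4 CPM in ADX. Acta2, which encodes smooth muscle actin, had 103 and 133 CPM in Sham and 3425 and 556 CPM in ADX. ADX replicate 2, the library with the smaller sum, had the higher Corin and Alpl values. The part of other cells in the values of the 10 genes was not tested.

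**Figure D4:**
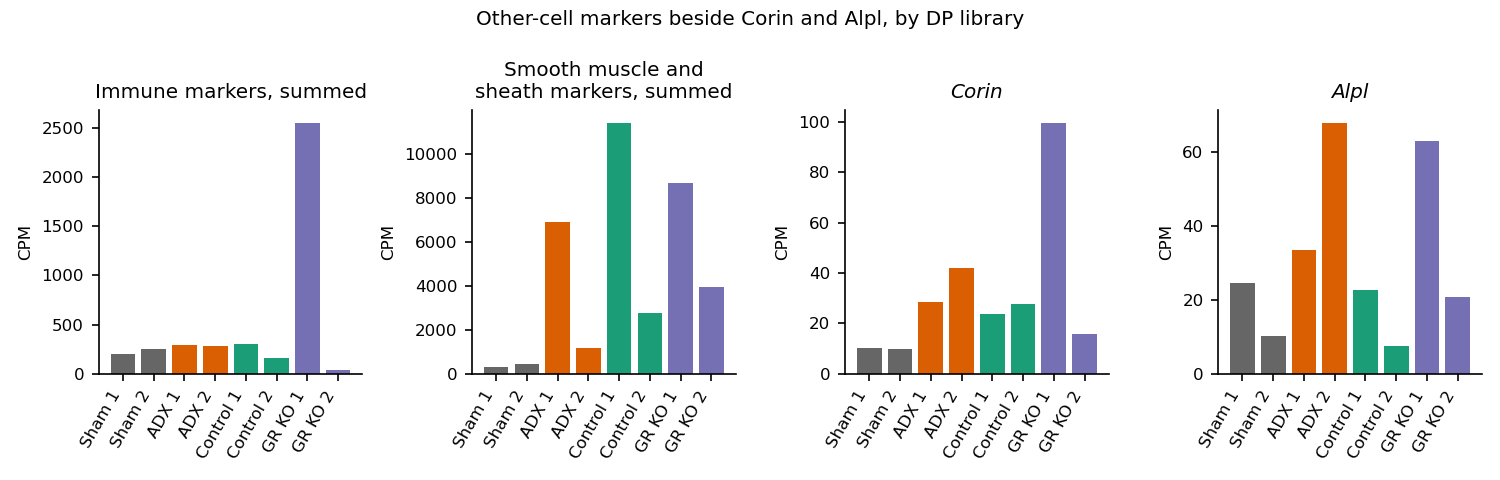
Summed CPM of the immune markers and of the smooth muscle, pericyte and dermal sheath markers, beside the CPM of Corin and Alpl, in each DP library on linear axes from 0. The tallest immune and Corin bars both belong to GR KO replicate 1, at 2551 and 99.6 CPM, while the tallest smooth muscle bar is Control replicate 1. The tallest Alpl bar is ADX replicate 2, at 67.8 CPM, where the immune markers summed to 279 CPM.

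Dermal fibroblast genes were high in every DP library, with 10 markers summing to 13600 to 58159 CPM. In GR KO edgeR called 1.54% of all genes and 2 of these 10 markers, both higher. They were Cd34, a surface sialomucin, with a log2 fold change of 2.14 and an edgeR adjusted p of 0.0272, and Col3a1, a fibrillar collagen, with 2.12 and 0.0385. Without Control replicate 2 neither was called, at adjusted p of 0.213 and 0.251, nor with only the groups compared, at 0.0704 and 0.105. Col3a1 was also not called without GR KO replicate 1, at 0.0598, or with protein-coding transcripts only, at 0.0571. DESeq2 called 4 of the 10 higher and 0 lower, and edgeR without a filter 6 higher and 1 lower. Over all genes these called 6.62% and 3.38%. After adrenalectomy 0 of the 10 were called by edgeR, where 0.0170% of all genes were. In edgeR 4 had an unadjusted p under 0.05 with lower values and 0 with higher values, beside 7.49% and 4.18% of all genes. All 10 had negative log2 fold changes. DESeq2 called 1 of the 10 lower and edgeR without a filter 3, beside 2.15% and 2.08% of all genes called. The keratinocyte list summed to 768 and 2664 CPM in Sham, 352 and 232 CPM in ADX, 454 and 363 CPM in Control and 797 and 76.5 CPM in GR KO. Of its 8 genes edgeR and DESeq2 called 0 in either comparison. EdgeR without a filter called 4 lower after adrenalectomy and 1 lower after GR deletion, beside 2.08% and 3.38% of all genes called. Vcan was highest in both GR KO libraries, in which the fibroblast markers summed to 50456 and 58159 CPM. The part of fibroblasts, immune cells and keratinocytes in the Vcan values was not tested.

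Sox2 is also known in Merkel cells and Schwann cells and Ncam1 in nerve-associated cells, so the markers of these cells were looked at. The 6 Merkel cell genes summed to 28.1 to 68.7 CPM per DP library. Atoh1, the factor that defines Merkel cells, was at 0 in 4 of the 8, and up to 3 of the 6 genes were at 0 in a library. The 7 Schwann cell genes summed to 17.2 to 160 CPM, with Sox10 and Foxd3 at 0 in GR KO replicate 2, the library in which Ncam1 had its highest value of 236 CPM. The 7 melanocyte genes summed to 30.04 to 92.8 CPM and the 6 endothelial genes to 22.7 to 80.1 CPM. No gene of these 4 lists was called by edgeR in either comparison, where 0.0170% and 1.54% of all genes were. There were 4 unadjusted p under 0.05 after adrenalectomy, the lowest for Mitf, and 2 after GR deletion, for Mitf and S100b. Of all genes, 4.18% had such a p with higher and 7.49% with lower values after adrenalectomy, and 9.67% and 5.57% after GR deletion. Of these lists DESeq2 called 0 genes after adrenalectomy and 2 lower after GR deletion, and edgeR without a filter 1 higher and 2 lower, in the same order. Over all genes DESeq2 called 2.15% and 6.62%, and edgeR without a filter 2.08% and 3.38%. Mitf, the master factor of melanocytes, had log2 fold changes of -1.21 after adrenalectomy and -1.56 after GR deletion. The melanocyte list as a whole had a median log2 fold change of 1.54 after adrenalectomy, with 5 genes higher and 2 lower. After GR deletion its median was -1.24, with 1 gene higher and 6 lower. The 8 HFSC markers summed to 286 to 1273 CPM in DP. Cd34, which that list shares with the fibroblast list, was the only one edgeR called with its filter on low counts. DESeq2 and edgeR without that filter each called 2 higher after GR deletion, and the latter 2 lower after adrenalectomy. The shares of all genes called are those given above for each test.

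The other 26 DP signature genes cover the secreted signals and pathway genes of the papilla. All 26 were tested, and edgeR called 1 in each comparison, in both cases Sox18, an SRY-box factor of the papilla and of endothelium. Over all genes edgeR called 0.0170% after adrenalectomy and 1.54% after GR deletion. This list, too, was chosen with earlier results of these data known. Sox18 had 20.4 and 15.8 CPM in Sham and 188 and 185 CPM in ADX, with a log2 fold change of 3.37 and an edgeR adjusted p of 0.0092. It had 20.9 and 26.3 CPM in Control and 134 and 118 CPM in GR KO, with 2.42 and 0.0165. Sox18 thus rose after either manipulation, with both altered libraries far above both others, but its adjusted p was 0.0593 for ADX against Sham without Sham replicate 2, 0.0792 with only those groups fitted, and 0.0862 for GR KO against Control without Control replicate 2. The endothelial markers summed to 57.5 and 78.3 CPM in Sham, 47.0 and 46.4 CPM in ADX, 33.6 and 30.8 CPM in Control and 80.1 and 22.7 CPM in GR KO, and their part in the Sox18 values was not tested. The list's median log2 fold change was 0.02 after adrenalectomy, with 14 genes higher and 12 lower, and 0.04 after GR deletion, with 13 each way. An unadjusted p under 0.05 was found for 2 higher and 3 lower genes after adrenalectomy, where 4.18% and 7.49% of all genes did. After GR deletion it was found for 6 higher and 7 lower genes, where 9.67% and 5.57% of all genes did.

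The 13 of these genes with an unadjusted p under 0.05 after GR deletion went both ways, and the examples given here besides Sox18 were chosen after their values were seen. Notum, a secreted Wnt inhibitor, had 571 and 818 CPM in Control and 164 and 63.5 CPM in GR KO. Lef1, a nuclear effector of Wnt signalling, had 290 and 380 CPM in Control and 141 and 55.6 CPM in GR KO. Prlr, the prolactin receptor, Fgf10, a growth factor, Bmp4 and Rspo3, both secreted signals, and Crabp1, which binds retinoic acid, were the other 5 with lower values. On the higher side, Nog, the BMP inhibitor noggin, had 1.18 and 1.12 CPM in Control and 10.2 and 30.8 CPM in GR KO. Hey1, a Notch target, had 5.44 and 4.09 CPM in Control and 14.5 and 25.1 CPM in GR KO. Itga9, Scube3 and Ptch1 were the other 3 with higher values beside Sox18. The groups of Notum, Lef1, Nog and Hey1 did not overlap, as for 31.6% of all genes with higher and 20.0% with lower values. Their edgeR adjusted p was 0.0718, 0.0712, 0.159 and 0.137. By DESeq2, 3 genes of the list were called higher and 7 lower after GR deletion, with 6.62% of all genes called. By edgeR without a filter 2 were called higher and 9 lower, with 3.38% of all genes called. After adrenalectomy DESeq2 called 1 higher and 0 lower, with 2.15% of all genes called. There edgeR without a filter called 1 higher and 2 lower, with 2.08% of all genes called.

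The DP data were estimated per transcript, which allows the forms of each gene to be described. These shares come from a model that distributes short reads, carry no error of their own and were not tested. Sox2 has 1 transcript, and Alpl-201, Tbx18-201 and Alx4-201 held nearly all counts of their genes, with at least 93.3% in any library. Vcan was split between a transcript with both large coding exons, of 5217 and 2880 bases, one with only the longer of these, and one with neither. The glycosaminoglycan chains of versican are attached in the regions that these exons encode. The first, Vcan-203, held 67.1% and 60.5% in Sham, 81.6% and 83.4% in ADX, 52.5% and 62.9% in Control and 37.4% and 41.0% in GR KO. The second, Vcan-206, held 7.30% and 15.9% in Sham and 3.09% and 0% in ADX. In Control it held 26.3% and 19.4%, and in GR KO 36.2% and 34.4%. The form with both exons thus took the largest shares in the ADX libraries and the smallest in the GR KO libraries, without overlap with Sham or Control. In counts, Vcan-206 had 509 and 544 in Control and 2239 and 2081 in GR KO, against 1015 and 1759 and then 2314 and 2482 for Vcan-203. The short form, Vcan-201, held 9.64% to 23.5%.

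For other genes some shares differed between the surgery and the deletion experiment. Ncam1-202, a transcript of 3088 bases, held 0% to 10.1% in Sham and ADX and at least 15% in Control and GR KO, where it reached 42.8%. Ncam1-204, of 6050 bases, held 28.6% to 76.7% over all libraries. Both encode proteins of nearly the same length, 849 and 848 residues. Trps1-205 held at most 0.557% in Sham and ADX and at least 8.09% in Control and GR KO. Trps1-201 held at most 2.89% in the former and at least 5.85% in the latter, reaching 27.1% in GR KO replicate 1. Corin-201 held at most 8.43% in Sham and ADX and 43.6% and 40.9% in Control, with 26.0% and 13.3% in GR KO. The surgery and deletion experiments differ in strain and tamoxifen, which cannot be told apart here. Within the deletion experiment, the longer Inhba transcript, Inhba-201 of 6390 bases, held 35.7% and 39.1% in Control and 20.8% and 25.1% in GR KO, and Trps1-202, of 9859 bases, held 43.7% and 40.9% in Control and 25.5% and 34.8% in GR KO. For Inhba, Trps1 and Vcan alike the longest transcript therefore had its smallest shares in both GR KO libraries. Prom1 was spread over 14 of its 19 transcripts, and coding transcripts held only 7.54% of its counts in Sham replicate 2, where a retained-intron transcript, Prom1-219, held 90.0%. Restricted to coding transcripts, the log2 fold change of Prom1 after adrenalectomy was 2.61 in place of 1.35, with an edgeR adjusted p of 0.362. Corin-203 and Corin-207 had counts in GR KO replicate 1 alone, the library in which Corin was highest.

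**Figure D5:**
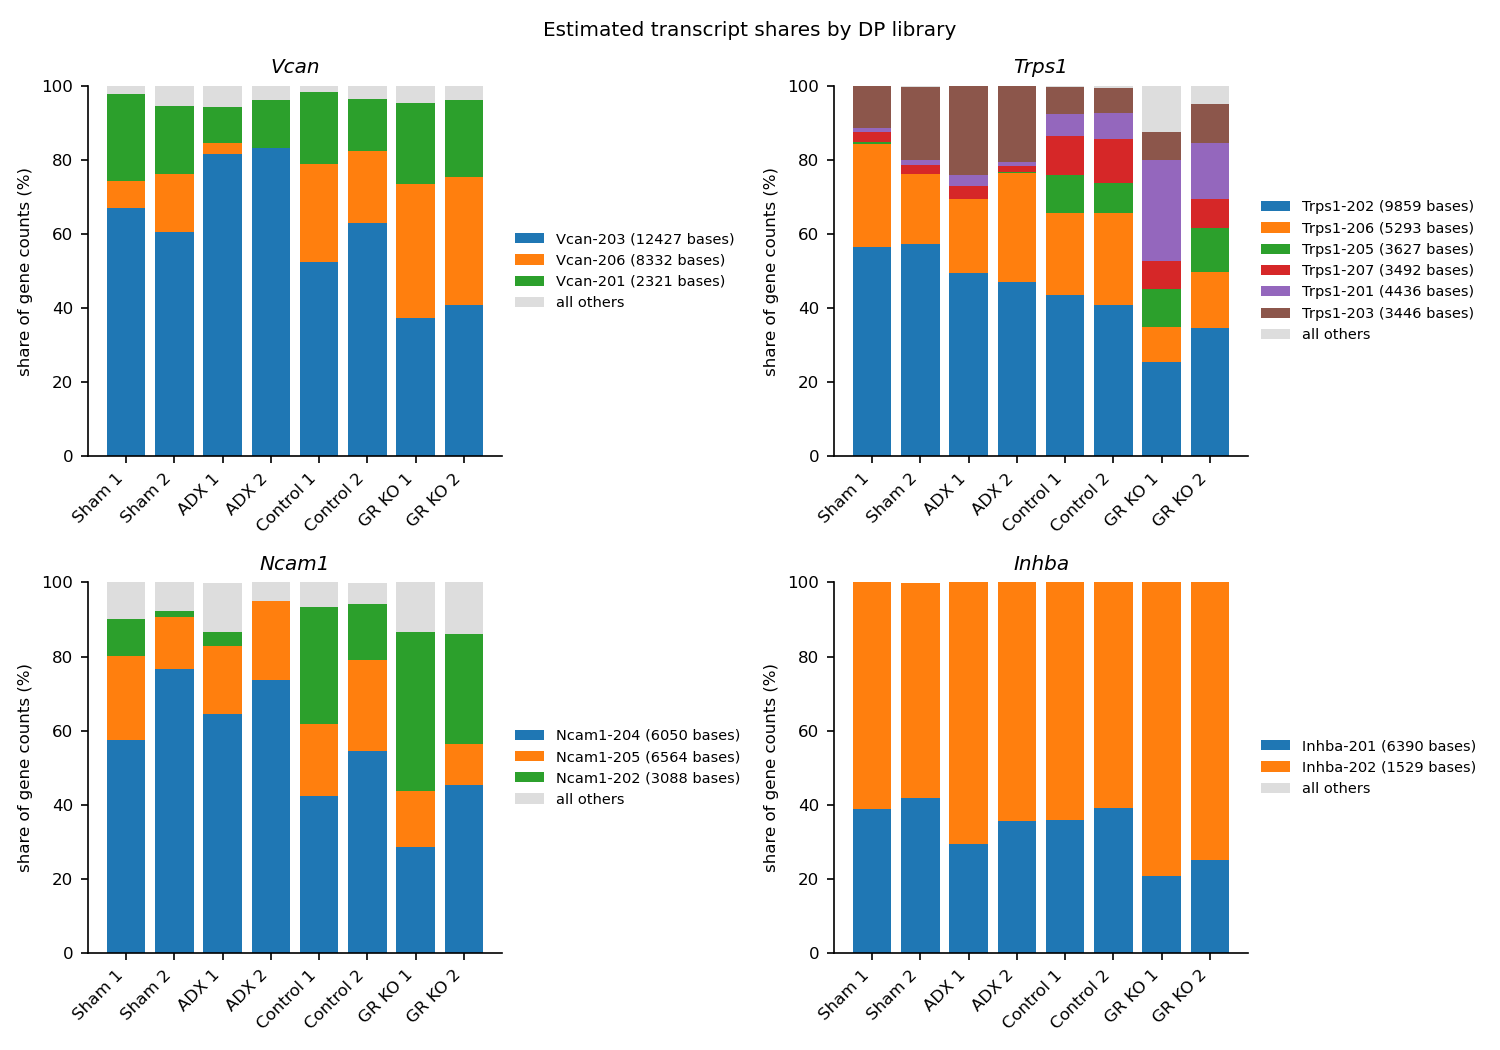
Share of each gene's estimated counts held by its main transcripts in every DP library, as stacked bars to 100%, for Vcan, Trps1, Ncam1 and Inhba, with transcripts under 10% in every group mean shown together in grey. The longest transcript, in blue for Vcan, Trps1 and Inhba, takes its smallest shares in the GR KO libraries. This does not hold for Ncam1-205, the longest of Ncam1. Ncam1-202 (green) is larger in Control and GR KO than in Sham and ADX.

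For the 3 genes with the highest level per length, the genes closest in pattern over the 8 DP libraries were found by the root mean square difference of centred log2 CPM among 11653 genes. Closest to Inhba were Bfsp1 at 0.21, Nr4a2 at 0.29 and Il11 at 0.31, where the median gene was at 0.95. Closest to Trps1 were Usp40 at 0.15, Malat1 at 0.15 and Upf2 at 0.16, with a median of 0.71. Closest to Vcan were Jpt2 at 0.27, Zfp27 at 0.31 and Vps33b at 0.31, with a median of 0.92. The nearest of the other 9 identity genes stood farther off, at 0.50 for Inhba (Trps1), 0.43 for Trps1 (Sox2) and 0.70 for Vcan (Prom1). None of these 3 genes had another identity gene among its closest 3. With 9 identity genes set beside 11653 candidates, this does not show whether the identity genes vary together.

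In HFSC, which are epithelial, most of the 10 genes had few or no counts. The label of those libraries was checked with 8 HFSC markers, which summed to 13712 to 40253 CPM. Trps1 was the 1 identity gene with a substantial level, with 4.995 to 11.998 TPM and 422 to 1221 counts per library. Inhba, Ncam1, Vcan and Alpl were low, with highest values of 2.26, 1.35, 0.764 and 2.94 TPM, and passed the filter on low counts together with Trps1. Inhba had 4 to 34 counts and Ncam1 1 to 154 counts per library. The HFSC annotation of Inhba covers 1980 exonic bases and ends before the longer transcript of the DP annotation does, so its HFSC values leave out part of that transcript. Tbx18 was at 0 in 9 of the 10 libraries, Alx4 in 8, Sox2 in 7, Corin in 6 and Prom1 in 5. If each count is taken as a separate fragment, a count of 0 allows up to 3 counts, or 0.0999 to 0.212 CPM by library, for counting error only. Alx4 had 38 and 16 counts and Sox2 10 and 16 counts in the 2 Control libraries, and no other HFSC library had more than 2 of either. HFSC counts were made without a paired setting, and 64.8% to 73.3% of the nonzero counts up to 10 were even numbers. A low count thus stands for fewer fragments, and the floors given above are then too low.

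None of the 5 identity genes tested in HFSC passed the edgeR test in any of the 3 comparisons there. Among all 15231 genes 0.295% passed for ADX against Sham, 0% for ADX+CORT against ADX and 0.985% for GR KO against Control. For ADX against Sham, 1 of the 5 had an unadjusted p under 0.05 with a higher value, where 9.01% of all genes did, and 0 with a lower value, where 6.21% did. DESeq2 and edgeR without a filter also called 0 of the 5 there, with 5.04% and 4.53% of all genes called. For ADX+CORT against ADX these were 0 higher, where 9.78% of all genes did, and 1 lower, where 9.53% did. For GR KO against Control they were 0 higher, where 7.0% did, and 1 lower, where 6.12% did.

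Trps1 was lowest in ADX, at 29.7 and 33.2 CPM, beside 54.5 and 41.2 CPM in Sham and 36.7 and 41.2 CPM in ADX+CORT. The ADX libraries did not overlap with either group, as for 23.9% of all genes with lower values than Sham and 26.7% with higher values in ADX+CORT than in ADX. Here and for Vcan below, both comparisons use the same ADX libraries and are not independent. The share of all genes meeting both was not counted. The log2 fold changes of Trps1 were -0.61 (-1.29 to 0.08) against Sham and 0.31 (-0.37 to 0.99) for ADX+CORT against ADX. In the deletion experiment Trps1 had 62.4 and 34.6 CPM in Control and 41.5 and 27.9 CPM in GR KO, with overlap. Vcan was highest in ADX, with 62 and 54 counts, beside 0 and 12 in Sham and 6 and 2 in ADX+CORT. Both ADX libraries were above the other 4, as for 25.5% of all genes with higher values than Sham and 25.8% with lower values in ADX+CORT than in ADX. The log2 fold changes were 3.16 (0.21 to 6.11), with an edgeR adjusted p of 0.290, and -4.09 (-7.19 to -1.0), with an edgeR adjusted p of 0.143. DESeq2 called the second at 0.0200, with 8.39% of all genes called, and edgeR without a filter at 0.0268, with 6.67% called. In the deletion experiment, however, Vcan had 84 and 58 counts in Control and 39 and 54 in GR KO. Alpl had 12 and 90 counts in ADX, 12 and 48 in ADX+CORT, 0 and 6 in Sham, 40 and 0 in Control and none in GR KO. Its only call, at an edgeR adjusted p of 0.0277 for GR KO against Control without a filter on low counts, where 4.28% of all genes were called, rests on the 40 counts of 1 Control library. DESeq2 called 0 of the 5 there, with 4.48% of all genes called. Ncam1 had 54 and 154 counts in Control and 26 and 16 in GR KO, without overlap, as for 19.1% of all genes with lower values (19.3% with higher values), and an edgeR adjusted p of 0.563. The dermal fibroblast markers summed to 739 to 2642 CPM per HFSC library. They include Cd34, which is also on the HFSC list, so that this sum does not measure mesenchymal cells alone. The part of mesenchymal cells in these low counts was not tested.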

How the data were processed

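RNA of sorted cells was sequenced from 8 DP and 10 HFSC libraries made with SMART-Seq v4 and Nextera XT, which keep no strand, per the labels' protocols. The authors deposited DP values as estimated counts of each transcript, from Salmon and the mm10 build according to the submitters' processing notes. HFSC values are whole-number counts of each gene, which the authors deposited as featureCounts 1.6.1 wrote them, over exons, with mapping quality of at least 30, per the file headers. Trim Galore 0.4.1, STAR 2.5.3 and DESeq2 1.22.2 also stand in the submitters' processing notes.

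GENCODE M21 (GRCm38) gave a gene symbol to 134817 of 134967 DP transcripts, whose estimated counts were summed per symbol and rounded. In 2 HFSC files 27 gene names had turned into dates and were restored from coordinates. DP and HFSC were fitted apart in edgeR 4.0.16 (R 4.3.3), with one mean for each group, TMM scaling, the default filter and the quasi-likelihood test. Adjusted p-values are Benjamini-Hochberg values over every gene tested, called under 0.05. Residual degrees of freedom were 4 for DP and 5 for HFSC, and the biological coefficient of variation was 54.0% and 38.7%. CPM refer to scaled library sizes, TPM were computed from counts and lengths, and standard errors come from the F statistic. Reads carry no molecular identifiers, so floors cover counting error only.

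The 10 genes and all lists were chosen with earlier results of these data known. The text names the 10 genes and Nr3c1, and of any other list it could name the called genes (up to 4 by p) or else the 2 with the lowest p. Other names were chosen after their values were seen, and the text says so. The alternatives were median-of-ratios scaling, DESeq2 1.42.0, no filter on low counts, the replicate number as a block, protein-coding transcripts alone, only the compared groups, and each library left out in turn, where a lone library is taken to vary as the other groups do. Crossed replicate numbers were added after seeing the data. On simulated counts with 200 changed genes, 4-fold changes were called in 41.8% of cases for ADX against Sham and 46.3% for GR KO against Control in DP, and 2-fold changes in 2.99% and 4.48%.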

Additional observations from a re-analysis of the deposited data

How the results depend on the processing

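Of 473 alternative values of single genes, 52 reversed in sign, 37 of them on leaving out 1 library, and 7 passed a threshold that the main values did not. None of these genes was called in the main values, so none could lose a call. The cause of these shifts was not tested. In DP, ADX against Sham became 0.03 on the log2 scale for Sox2 and 0.03 for Trps1 with protein-coding transcripts only. GR KO against Control became negative for Trps1 and Ncam1, at -0.09 and -0.01 with median-of-ratios scaling, -0.16 and -0.08 with no filter on low counts, -0.09 and -0.01 with DESeq2, -0.10 and -0.05 with protein-coding transcripts and -0.10 and -0.03 with only the 2 groups compared. The difference of effects became -0.12 for Trps1 with protein-coding transcripts and 0.05 for Inhba with the replicate block, and in HFSC the replicate block gave 0.24 for Inhba in GR KO against Control.

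Leaving out single libraries gave these ranges of log2 fold changes. For ADX against Sham in DP they were -0.94 to 0.30 for Sox2, -0.58 to 0.07 for Trps1, -0.01 to 1.02 for Inhba and -0.02 to 0.73 for Alx4. For GR KO against Control they were -0.30 to 0.62 for Sox2, -0.69 to 1.96 for Corin, -0.59 to 0.44 for Trps1, -0.08 to 0.66 for Tbx18 and -0.16 to 0.32 for Ncam1. For the difference of effects they were -0.07 to 1.0 for Sox2, -1.01 to 0.82 for Alpl, -0.13 to 0.64 for Vcan, -2.44 to 0.22 for Corin, -0.38 to 0.64 for Trps1 and -0.49 to 0.43 for Inhba. In HFSC, Inhba ranged from -2.08 to 0.19 for ADX against Sham. For ADX+CORT against ADX, Alpl ranged from -2.28 to 0.93, Inhba from -1.27 to 0.56 and Ncam1 from -4.58 to 0.48. For GR KO against Control, Vcan ranged from -0.85 to 0.30, Trps1 from -0.85 to 0.00 and Inhba from -0.97 to 2.67.

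Of the 10 genes, 0 were called in every comparison with each library left out. With no filter 2 were called for ADX against Sham in DP, 1 for GR KO against Control in DP, 1 for ADX+CORT against ADX and 1 for GR KO against Control in HFSC, and DESeq2 called 1 for GR KO against Control in DP and 1 for ADX+CORT against ADX. By length of the longest transcript 4 genes kept their place in the order of levels. Over all genes, ADX against Sham in DP had 4 calls, and 894 with no filter, 505 with DESeq2, 8 with protein-coding transcripts, 0 with only the groups compared and 1 to 12 without single libraries. GR KO against Control in DP had 361, and 1456 with no filter, 1554 with DESeq2, 142 with only the groups compared and 19 to 226 without single libraries. The difference of effects had 112, and 1305, 1234 with DESeq2, 34 with protein-coding transcripts and 3 to 221 without single libraries. In HFSC, ADX against Sham had 45, and 888 with no filter, 768 with DESeq2, 93 with only the groups compared and 0 to 235 without single libraries. ADX+CORT against ADX had 0, and 1309, 1278 and 0 to 549, and GR KO against Control had 150, and 840, 683 and 5 to 336.

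The replicate numbers share only a number between groups. With the replicate block, calls over all genes became 10 for ADX against Sham in DP, 470 for GR KO against Control in DP, 196 for the difference of effects and 9 for ADX against Sham in HFSC, and no identity gene gained a call. Same-numbered Sham and ADX libraries of DP had a correlation of deviations of -0.148 (0.220 for Control and GR KO), and with crossed numbers 3 genes were called higher and 1 lower. Depth limits Sox2, with 30 to 117 estimated counts per DP library, and most of these genes in HFSC.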
